A study of Homo sapiens with 4 samples.

Results

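The genes described here are 3 NOTCH ligand genes, DLL1, DLL3 and JAG1, and 2 genes of the HES family of transcription factors, HES5 and HES6. They were chosen by name, with earlier results of these data known. All 5 could be tied to transcripts, out of 1560 genes that could be tied in this series. The data are translating ribosome affinity purification and RNA sequencing (TRAP-seq) of human cells at day in vitro (DIV) 28. All libraries come from an ATOH1-EGFP-L10a line, a clonal derivative of the embryonic stem cell line RUES2 with a lentiviral transgene in which a human ATOH1 enhancer drives a ribosomal protein fused to EGFP. Every culture went through the same differentiation towards the cerebellum, with dual SMAD inhibition by SB431542 and LDN-193189, the WNT agonist CHIR99021, FGF2, BMP7 and BDNF. The IP group holds mRNA pulled down on EGFP from 3 independent differentiations, and the input group is 1 library at DIV28. IP selects cells in which the enhancer is active, so a cell type is defined here by the transgene and not by a sort. The clone used and the differentiation behind the input are not given in the sources used here.

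NOTCH signaling runs between touching cells. A ligand of the Delta or Jagged family on one cell binds a NOTCH receptor on its neighbour, proteases release the receptor's intracellular domain, and this domain joins the DNA-binding protein RBPJ to switch on HES and HEY genes, whose products repress proneural genes. Neurogenic progenitors that express proneural factors such as ATOH1 are known to express Delta ligands, while HES5 is a classic NOTCH target of neighbouring progenitors. HES6 is the member that does not follow this scheme, since it is known to be induced by proneural factors and to oppose HES1. JAG1 is known from progenitors and glia of the cerebellum and from blood vessels, and DLL3 is known to act inside the cell that makes it and not to activate NOTCH on a neighbour.

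Stretches of 250 bases before the annotated starts of HES5, HES6 and JAG1 are shown because these 3 promoters belong to a NOTCH target, a HES gene of the proneural program and the ligand gene that moved against the others. RefSeq on GRCh38.p14 gave an entry for 3 of the 5 genes, HES5 at chr1:2530264-2530513, HES6 at chr2:238240039-238240288 and JAG1 at chr20:10674000-10674249, all on the minus strand and printed 5′ to 3′ towards the gene. DLL1 and DLL3 had no entry. Capitals mark matches, on either strand, to the E-box CANNTG, the N-box CACNAG and the core letters TGGGAA of an RBPJ site.
HES5: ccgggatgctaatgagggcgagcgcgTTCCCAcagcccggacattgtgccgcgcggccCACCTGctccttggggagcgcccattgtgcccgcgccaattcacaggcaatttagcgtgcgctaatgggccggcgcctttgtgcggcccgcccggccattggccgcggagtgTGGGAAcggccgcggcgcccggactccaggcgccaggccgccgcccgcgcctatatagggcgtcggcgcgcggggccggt
HES6: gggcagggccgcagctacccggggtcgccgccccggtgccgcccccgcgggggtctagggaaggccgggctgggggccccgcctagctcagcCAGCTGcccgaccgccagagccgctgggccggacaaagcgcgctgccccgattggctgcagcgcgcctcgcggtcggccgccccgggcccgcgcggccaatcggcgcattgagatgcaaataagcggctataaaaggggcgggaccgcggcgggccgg
JAG1: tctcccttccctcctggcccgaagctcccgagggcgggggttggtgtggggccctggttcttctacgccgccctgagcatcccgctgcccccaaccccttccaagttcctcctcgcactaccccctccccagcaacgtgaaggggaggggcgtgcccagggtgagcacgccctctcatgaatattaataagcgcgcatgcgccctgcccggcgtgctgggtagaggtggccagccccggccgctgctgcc
HES5 held 2 matches to the RBPJ core, which begin 224 and 80 bases before the start and read TTCCCA and TGGGAA, so that they face opposite ways. It also held 1 E-box, CACCTG, 192 bases before the start. HES6 held 1 E-box, CAGCTG, 158 bases before the start, and no RBPJ core. JAG1 held none of these letters in its window. No matches overlapped. Of 35116 promoters of the same length, 61.8% held an E-box, 32% an N-box and 20.8% an RBPJ core, so single matches are common, and 2 or more RBPJ cores stood in 2.9% of promoters. GC content was 72.8% for HES5, 77.2% for HES6 and 68.4% for JAG1, beside a median of 58% over all promoters.

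The files name transcripts and not genes, and GEO's labels and the file names differ on which library is the input. The title of the sample labelled input holds 2 tags. The file under it carries the tag that the titles of the IP samples share, and the file with the other tag, which is in that 1 title alone, sits under a sample labelled IP. This last file is taken as the input here, a choice that the labels alone do not settle. With it as the input, sums of transcripts matched the study's log2 fold changes to 3e-05 for 1560 genes. Of the 1490 with a position, 1480 lay with their tied neighbours. The same match was not tried with the labels' input. What the tags stand for is not given. They divide the libraries as IP and input do, so tag and group cannot be told apart. ATOH1, the factor whose enhancer drives the transgene, had 37.76, 50.6 and 44.09 TPM (a level scaled by transcript length and library size) in IP replicates 1, 2 and 3 and 0.304 TPM in this input, where it rests on 7 reads. All members carry the same caveat: with the input as GEO labels it, each of the 5 turned its direction and none passed the test. Total estimated counts were 34603230 to 37719839 for the IPs and 41173019 for the input. Genes were tied through the part of the study's own gene table that was available, all of whose rows the study had called, so the direction of a tied gene is not independent of that call. In bulk samples, fewer cells of a type and less RNA per cell cannot be told apart. Since the IPs hold ribosome-bound RNA, a difference in ribosome binding cannot be told apart from these either.

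All 5 members passed the filter on low counts, HES5 through its IP reads alone, since it had 1 read in the input. Of the 5 members, 4 were higher in IP than in input and 1 was lower. DLL1, DLL3, HES5 and HES6 rose and JAG1 fell. The test was the quasi-likelihood test of edgeR, adjusted by Benjamini-Hochberg over all 43963 genes and single transcripts tested, with a threshold of 0.05. Over all of these, 2.34% were higher and 1.49% lower. Over the 1560 tied genes, the share was 30.3% higher and 27.5% lower. This is the closer comparison, since members had to be in the study's called list to be tied. Before adjustment, nearly every tied gene had an edgeR p under 0.05. The passes of the members are therefore not independent of the tie. All 3 IPs lay above the input for 28.2% of all genes and transcripts and below it for 33.5%. The median log2 fold change of the 5 members was 4.63, beside 0.82 over all tied genes and 0.10 over everything tested. Since there is 1 input, the spread behind each test comes from the 3 IP libraries alone, and the same spread is assumed for the input. For a single gene taken alone, 3 libraries against 1 can be arranged in 4 ways, so an exact one-sided permutation test could not go below p = 0.25 and was not used.

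**Figure D1:**
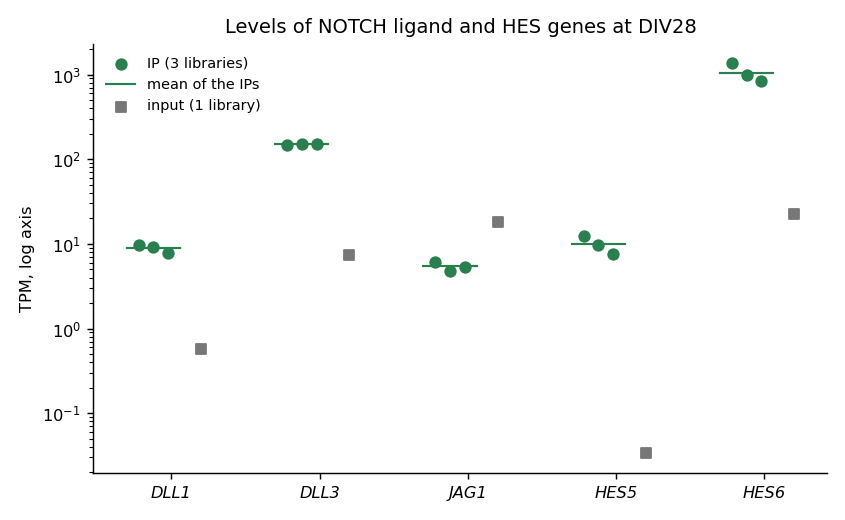
TPM on a log axis of the 5 genes at DIV28, with green circles for the 3 IP libraries, a green line for their mean and a grey square for the single input library. JAG1 is the gene with the input above all IPs (18.1 TPM against 4.83 to 6.13), and HES6 is the most abundant in the IPs at a mean of 1056 TPM.

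DLL3, the Delta-like ligand that is retained inside the cell, was the most abundant of the 4 NOTCH ligand genes that could be tied, out of 8, in the IPs. The other ligand genes were not analysed here. It had 149.2, 152.2 and 152.7 TPM in IP replicates 1, 2 and 3 and 7.34 TPM in the input. All IPs stood far above the input. They varied among themselves by a coefficient of variation of 1.26% in TPM and 5.81% in CPM. CPM is the count scaled to TMM-adjusted library size, without transcript length. The level in the IPs was 20.6 ± 0.259 times that in the input (SD, n = 3, TPM), and the counts gave a log2 fold change of 4.63 ± 0.17 (SE), with an edgeR adjusted p of 0.0163. The SD of this and other ratios to the input is of the IPs alone and leaves out any error of the single input. In CPM the ratio was 24.7, or 22.4 to 27.3 by the counting error of the input. The input value rests on 401 reads, for which the 95% Poisson interval is 363 to 442 reads. This and the other intervals here speak of counting error alone, because the reads carry no molecular identifiers and need not be independent molecules. DLL3 lies on chromosome 19 from 39989535 to 39999121 on the plus strand (GRCh37), and no exon of another annotated gene overlaps its exons.

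DLL1, a Delta-like ligand that activates NOTCH on neighbouring cells, was also higher in IP, at a much lower level. Its TPM were 9.70, 9.25 and 7.76 in the IPs, against 0.567 in the input. No IP came near the input value, which rests on 49 reads (95% Poisson interval 36.3 to 64.8). The ratio of IP to input was 15.7 ± 1.79 (SD, n = 3, TPM), and the counts gave a log2 fold change of 4.28 ± 0.33 (SE), with an edgeR adjusted p of 0.0251. DLL3 stood at 17.2 ± 2.23 times the TPM of DLL1 in the IPs (SD, n = 3) and at 13 times in the input. DLL1 lies on chromosome 6 from 170591294 to 170615653 on the minus strand (GRCh37). Of its annotated exon bases, 9.69% overlap exons of FAM120B on the other strand, and since counting by strand is not stated, reads there could not be told apart.

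JAG1, a Jagged ligand, went the other way. It had 6.13, 4.83 and 5.29 TPM in the IPs, against 18.1 TPM in the input, with every IP below the input. The input was 3.34 times the mean of the IPs in TPM, and edgeR gave a log2 fold change of -1.40 ± 0.18 (SE) at an adjusted p of 0.0415. Reads were plentiful for this gene, at 893 to 1068 in the IPs, against 2930 in the input. It stayed detectable in the IPs, at a level whose range lay below that of DLL1 in TPM. In CPM, which takes no account of the long JAG1 transcript, JAG1 was above DLL1 in 2 of 3 IPs. JAG1 lies on chromosome 20 from 10618332 to 10654647 on the minus strand (GRCh37), and 3.29% of its exon bases overlap an antisense lncRNA.

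The proportions of the 3 ligand genes differed between the groups. Of the summed TPM of DLL1, DLL3 and JAG1, DLL3 made up 91.4% ± 0.873, DLL1 5.38% ± 0.619 and JAG1 3.27% ± 0.412 in the IPs (SD, n = 3). In the input, JAG1 made up 69.6%, DLL3 28.3% and DLL1 2.18%. The sum itself was 165.7 ± 0.627 TPM in the IPs (SD, n = 3) and 26 TPM in the input. DLL3 was at 24.3, 31.5 and 28.9 times the TPM of JAG1 in the IPs and at 0.406 times in the input. These shares rest on the same values as the tests above and have no test of their own.

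**Figure D2:**
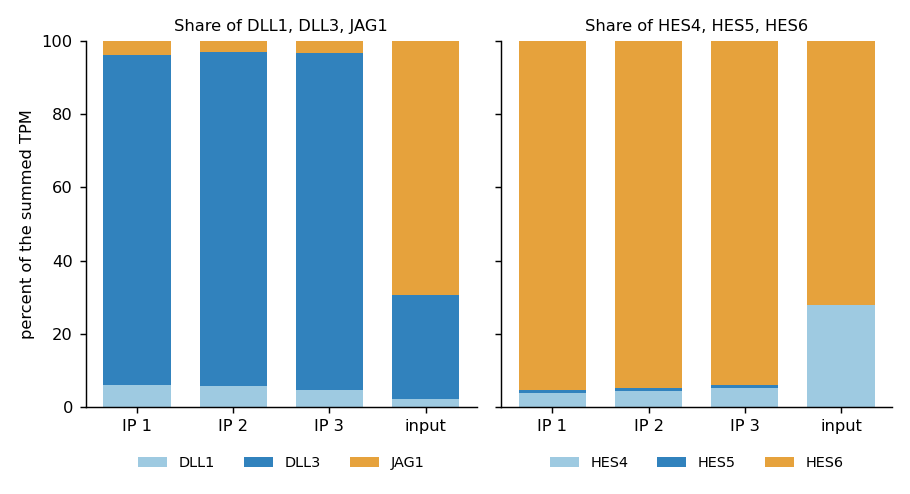
Percent of the summed TPM held by each gene in each library, with the ligands DLL1, DLL3 and JAG1 on the left and HES4, HES5 and HES6 on the right. DLL3 holds 90.4% to 92.1% of the ligand sum in the IPs while JAG1 holds 69.6% in the input, and HES6 holds the largest share of the HES sum in all 4 libraries.

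HES6, the HES factor of the proneural program, was the most abundant member in every library by TPM. It had 1352, 980 and 837.2 TPM in the IPs, against 22.5 TPM in the input. The IPs spread by a coefficient of variation of 25.1%, and the lowest of them was 37.2 times the input. The counts gave a log2 fold change of 5.87 ± 0.37 (SE), with an edgeR adjusted p of 0.021. Among the 1560 tied genes, the mean TPM of HES6 in the IPs exceeded that of 95.2% of genes, and its TPM in the input exceeded that of 32.9%. HES6 lies on chromosome 2 from 239146908 to 239149303 on the minus strand (GRCh37), with no overlapping exon of another gene.

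HES5, the NOTCH target with the RBPJ core letters in its promoter, was near the limit of detection in the input. It had 400, 327 and 271 reads in the IPs and 1 read in the input. In TPM this was 12.5, 9.60 and 7.51 against 0.0335. The ratio of CPM was 369, but 1 read has a 95% Poisson interval of 0.0253 to 5.57 reads, which puts the ratio between 66.2 and 14600. The edgeR log2 fold change, 8.35 ± 0.84 (SE) at an adjusted p of 0.0328, depends on that single read and on the prior count of the fit. HES5 lies on chromosome 1 from 2460184 to 2461702 on the minus strand (GRCh37), with no overlapping exon of another gene.

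HES6 and HES5 stood in a similar proportion in each IP. HES6 was at 108, 102 and 111 times the TPM of HES5 in replicates 1, 2 and 3, although each varied by about as much as the other, with coefficients of variation of 25.1% and 25.2%. In order of TPM in the IPs, HES6 came first, then DLL3, HES5, DLL1 and JAG1. HES5 and DLL1 overlapped in range, with HES5 above DLL1 in 2 of 3 libraries, and the other neighbours in this order did not overlap. In the input, the order by TPM was HES6, JAG1, DLL3, DLL1 and HES5, while by CPM JAG1 came first, at 72.4 CPM against 17.8 CPM for HES6. In the input HES6 was at 672 times HES5, a value that rests on 1 HES5 read. Relative to ATOH1, DLL3 was at 3.95, 3.01 and 3.46 times its TPM in the IPs and at 24.2 times in the input. HES6 was at 35.8, 19.4 and 19 times the TPM of ATOH1 in the IPs and at 74.1 times in the input. Both were thus lower against ATOH1 in the IPs, with 7 ATOH1 reads behind the input ratios.

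The members differed in how their reads fell on transcripts. JAG1 and HES5 were each tied to 1 transcript, of 5987 and 1306 bases. DLL1 had at least 96.3% of its reads in every library on its transcript of 3310 bases, and HES6 had 94.2% to 95.9% on its transcript of 1370 bases. DLL3 split its reads between transcripts of 2046 and 2383 bases. The longer one held 18.7%, 22.1% and 20.7% of DLL3 reads in the IPs, against 45.9% in the input, where the exact 95% binomial interval was 40.9% to 50.9%. Tested singly by edgeR, the transcript of 2046 bases rose by 5.16 ± 0.18 (SE) on the log2 scale and that of 2383 bases by 3.47 ± 0.27 (SE), at adjusted p of 0.0188 and 0.0286. The difference between them was not tested. Salmon divides reads that fit several transcripts by an estimate, and its error is not in these intervals.

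**Figure D3:**
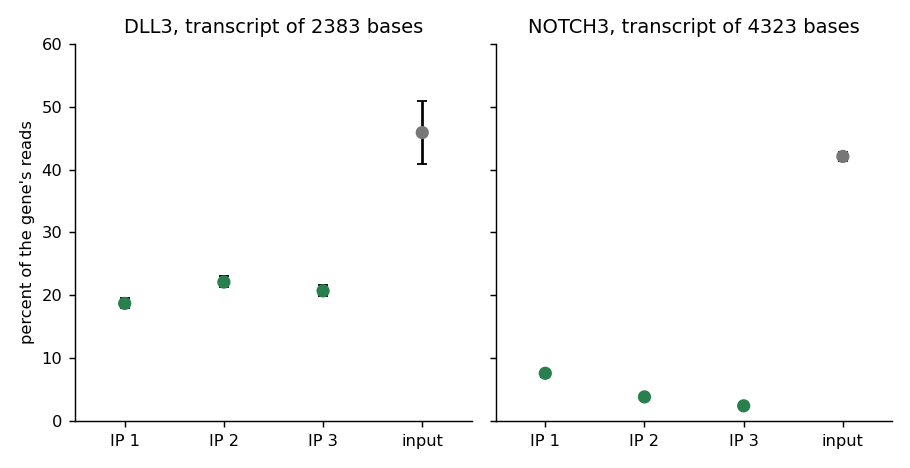
Percent of a gene's reads assigned to the DLL3 transcript of 2383 bases (left) and the NOTCH3 transcript of 4323 bases (right) in each library, with exact 95% binomial intervals that cover counting error only. For both genes the input lies above the IPs, at 45.9% against 18.7% to 22.1% for DLL3 and 42.1% against 2.4% to 7.58% for NOTCH3.

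The wider NOTCH pathway was described by a list of 52 genes, of which 14 could be tied, the 5 members among them. Of these 14, 6 were higher, 3 lower and 5 did not pass, where 30.3% of all tied genes were higher and 27.5% lower. Their median log2 fold change was 2.08, beside 0.82 for all tied genes. The 5 members, with a median of 4.63, are counted in it. Of the other 9 genes, DTX4 and HES4 were higher, POFUT1 and ADAM10 lower, and the rest did not pass. The middle log2 fold change of these 9 was 0.89, that of PSENEN. None of the 6 genes of nuclear cofactors was tied, so RBPJ and its partners were not analysed here, and HES1, NOTCH1 and NOTCH2 were likewise not analysed here.

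Among the other targets, HES4, a further HES repressor, rose with HES5 and HES6. It had 52.9, 44.3 and 46.4 TPM in the IPs, against 8.67 TPM in the input, which edgeR fitted as 2.80 ± 0.25 (SE) on the log2 scale at an adjusted p of 0.0289. Of the summed TPM of HES4, HES5 and HES6, HES6 made up 94.7% ± 0.72 in the IPs (SD, n = 3) and 72.1% in the input, and HES4 4.41% ± 0.743 and 27.8%. NRARP, a NOTCH target that feeds back on the pathway, had 11.3, 8.90 and 6.88 TPM in the IPs against 2.69 TPM, and did not pass (edgeR log2 fold change 2.07, adjusted p = 0.0758).

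NOTCH3, the 1 receptor gene of 4 that could be tied, had 40.3, 35.9 and 24.3 TPM in the IPs, against 106.3 TPM in the input. All IPs were below the input, but the gene did not pass (edgeR log2 fold change -0.93, adjusted p = 0.132). Its reads lay on transcripts of 8071 and 4323 bases, and the shorter one held 7.58%, 3.82% and 2.4% of reads in the IPs, against 42.1% in the input. With transcript length as an offset, the log2 fold change was -1.34. DLK1, a non-canonical ligand gene, had 20.4, 14.0 and 12.4 TPM in the IPs, against 53.4 TPM in the input and did not pass either (edgeR adjusted p = 0.0827).

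Genes that modify, cut or ubiquitinate the receptor passed in both directions. POFUT1, which adds the fucose that NOTCH needs, had 9.01, 10.4 and 10.3 TPM in the IPs, against 38.1 TPM in the input (edgeR log2 fold change -1.64, adjusted p = 0.0295). ADAM10, the protease of the first cut, had 12.6, 15.6 and 14.8 TPM against 58.3 TPM (edgeR log2 fold change -1.69, adjusted p = 0.0361). Both thus fell, in the direction of JAG1. DTX4, an E3 ligase of the Deltex family, rose, with 12.1, 12.7 and 9.69 TPM in the IPs, against 3.44 TPM in the input (edgeR log2 fold change 2.08, adjusted p = 0.0346). MFNG, a Fringe glycosyltransferase that tunes the response to Delta ligands, had 44.4, 22.2 and 12.3 TPM in the IPs, against 0.489 TPM in the input. Its IPs differed widely (coefficient of variation 62.6%), and its log2 fold change by edgeR, 6.03 ± 1.06 (SE), did not pass at an adjusted p of 0.0658. PSENEN, a γ-secretase subunit, had 447.5, 446.2 and 479.1 TPM against 317.5 TPM and did not pass (edgeR log2 fold change 0.89, adjusted p = 0.0625). Of its exon bases, 31.3% overlap an antisense lncRNA and 21% another gene on the same strand.

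**Figure D4:**
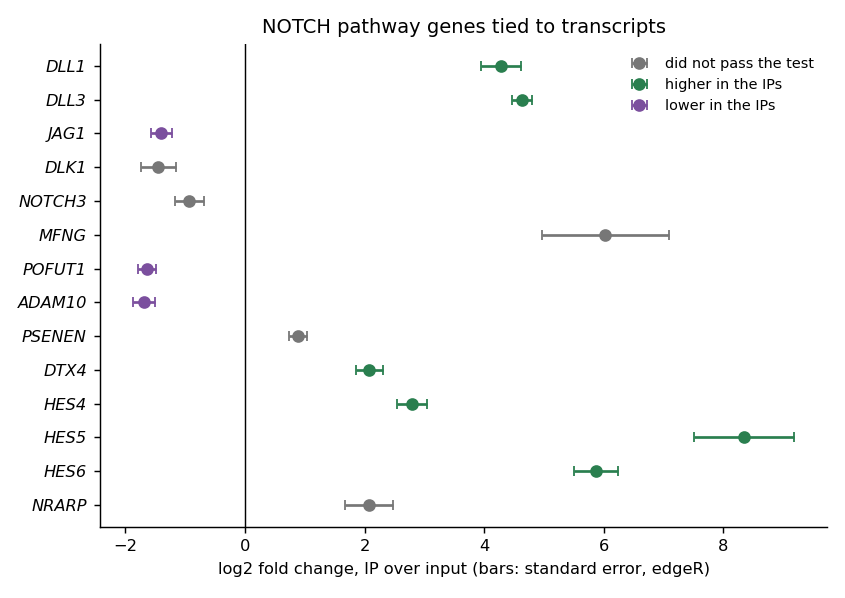
Log2 fold change of IP over input by edgeR (points) and its standard error (bars) for the 14 NOTCH pathway genes tied to transcripts (3 IP libraries, 1 input library). Green marks genes that passed as higher, purple as lower and grey those that did not pass, and HES5 (8.35) has 1 read in the input.

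Marker genes of several cell types moved beside the members. Of 13 proneural and early neurogenic genes, 9 were tied and 8 were higher, and their summed level was 189 to 221.9 TPM in the IPs, against 12.6 TPM in the input. All 7 tied genes of 8 young neuron markers were higher, at 1042 to 1167 TPM summed against 331.2 TPM. Of all tied genes, 30.3% were higher and 27.5% lower, and only genes that the study had called could be tied. Beside JAG1 and NOTCH3, which vessels and glia also express, endothelial markers summed to 30.7 to 47.8 TPM in the IPs, against 294.3 TPM in the input, but only 2 of 16 could be tied and they split. ADGRL4, at 293.7 TPM, made up nearly all of the input sum and was lower in IP, and CLDN5 was higher, at 9.42 to 23.7 TPM against 0.609 TPM. Of 10 mural markers, the 2 tied genes split as well, CSPG4 lower and TAGLN higher, at 828.6 to 913 TPM summed in the IPs, against 525.7 TPM in the input. Of 10 neural stem and glial markers, 3 were tied, with SOX9 lower, SOX2 higher and FABP7 not passing, at 89.9 to 113.3 TPM summed against 141.2 TPM. No tied marker was at 0 in the input or in all IPs. The part of these cell types in the values of JAG1 and NOTCH3 was not tested.

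Among the tied genes, those most like each member were found by the root mean square difference of centred log2 CPM, with 0.5 CPM added, over the 4 libraries, and up to 3 are given for each. DLL1 was nearest to TAGLN3, a neuronal cytoskeletal gene, at a difference of 0.0275, then to RARRES2 at 0.0411. JAG1 was nearest to PDP1 at 0.0338, then to the proliferation marker MKI67 at 0.0374 and the chromatin factor ATF7IP at 0.0455. MKI67 had 35.4, 29.4 and 32 CPM in the IPs, against 82.6 CPM in the input. HES5 was nearest to SHD at 0.031, then to TPPP3 and the ligand gene WNT4 at 0.0496 and 0.0992. DLL3 was nearest to HOXC10, HOXB7 and INSM1, at 0.145, 0.147 and 0.153, and HES6 to HOXB9, the neurogenic factor NHLH1 and WNT1, at 0.102, 0.216 and 0.315. The 0.5 CPM added flattens genes with few reads in the input. HOXC10 thus ranks beside DLL3 with 1 input read and a log2 fold change of 8.50, and SHD beside HES5 with 69 input reads and 4.61.

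**Figure D5:**
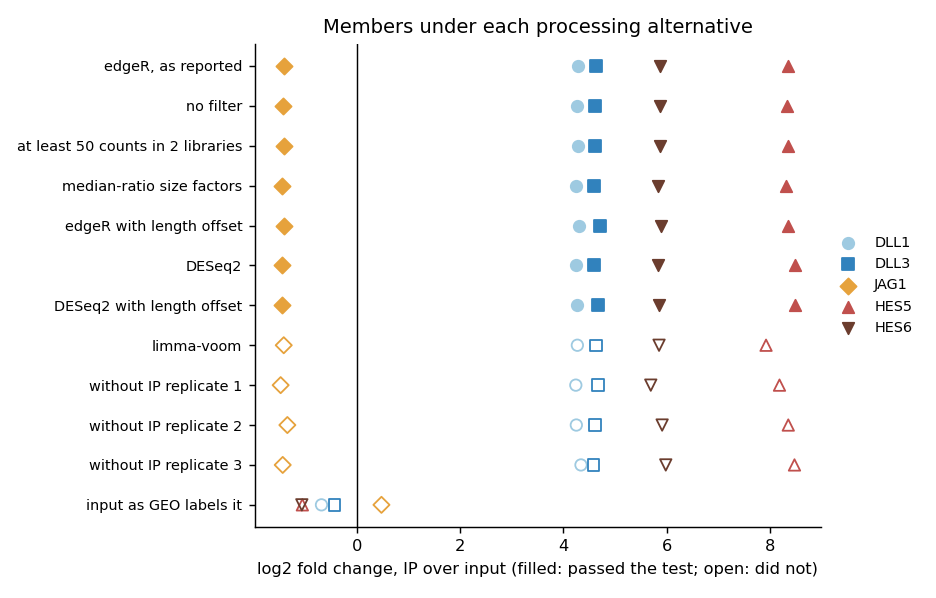
Log2 fold change of IP over input of the 5 members under each processing alternative, with filled symbols where the adjusted p was under 0.05 and open symbols where it was not. All 5 keep their side of 0 in every setting but the last, in which the input is the sample that GEO labels as such. The other settings share the same single input, and genes were tied by the study's fold change, so keeping a side is no independent check.

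These calls depend on the number of IP libraries and on the tool. Without IP replicate 1, 2 or 3, no member passed edgeR's test (adjusted p = 0.105 to 0.2), nor did any with limma-voom. The same holds for the other 9 pathway genes tied. All 5 members kept their direction there, with log2 fold changes of 4.24 to 4.34 for DLL1, 4.58 to 4.70 for DLL3, -1.47 to -1.34 for JAG1, 7.92 to 8.48 for HES5 and 5.69 to 5.98 for HES6 over 10 alternatives. These alternatives share the same single input, and a gene was tied only if its fold change matched the study's. The kept direction is therefore no independent check of the members.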

How the data were processed

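Per the labels and the study's methods, ribosome-bound RNA of 3 differentiations (IP) and 1 input at DIV28 was made into full-length cDNA libraries, sequenced as single reads and quantified by the authors with Salmon 0.8.2 on hg19 UCSC transcripts. What was deposited, for 69548 transcripts in each library and without gene names, is Salmon's estimated count and its TPM. The authors' further steps used tximport and DESeq2 1.20.0. Their gene table, of which 1998 rows were available, holds their mean counts and fold changes. It served to name genes, and its mean counts and fold changes decided which genes could be tied.

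A gene was tied to a run of 1 to 20 neighbouring transcripts if their sum matched the table's mean count to 2% and, refitted with a length offset, its log2 fold change to 3e-05. The mean count alone, as planned, did not single out any member, so the fold change was added, and the tolerance was set after HES5 had missed a narrower one. Of 1677 genes with a match, 109 with several and 8 sharing a transcript were left out. Of 1490 tied genes with a position, 1480 shared chromosome and strand with their tied neighbours. Members and lists were chosen with earlier results of these data known.

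Tied genes were summed, other transcripts kept singly, and estimated counts rounded. edgeR 4.0.16 in R 4.3.3 was run as a two-sided quasi-likelihood test on TMM-scaled counts past filterByExpr (at least 10 counts), adjusted by Benjamini-Hochberg. Standard errors are the size of the log2 fold change over the root of the F statistic. The functions were tested on simulated data with a smaller spread than the real fit, whose common coefficient of variation was 0.947. That test therefore gives no error rates for these data. Alternatives were other filters, median-ratio scaling, length offsets, DESeq2 1.42.0, limma-voom (limma 3.58.1), leaving out each IP, the labels' input and single transcripts. Genes named are the 5 members, ATOH1, each tied NOTCH gene, the 3 most alike genes per member, and marker genes where a result turns on them. Some items that this rule allows are not reported here.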

Additional observations from a re-analysis of the deposited data

How the results depend on the processing

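With no filter, median-ratio scaling, a length offset in edgeR, a filter of 50 counts in 2 libraries, and DESeq2 with or without length offset, 4 members were higher and 1 lower. With limma-voom, without any 1 of the 3 IP replicates (0 to 0) and with the labels' input, 0 members were higher and 0 lower, and at an unadjusted p under 0.05 it was 3 and 1 with limma-voom, 4 and 1 without a replicate and 0 and 0 with the labels' input. Over all genes and transcripts, edgeR called 1029 higher and 657 lower. This became 1861 and 1143 with the filter of 50 counts, 5846 and 4033 with DESeq2, 5875 and 4055 with DESeq2 and a length offset, and 0 and 0 with limma-voom, with the labels' input and without any 1 IP replicate. At an unadjusted p under 0.05, limma-voom then had 3807 higher and 6437 lower, the labels' input 1040 and 226, and the fits without a replicate 3590 to 4278 and 3132 to 3676. With DESeq2, 9 of the 14 pathway genes were higher and 5 lower. Every tied gene passed in 1 direction or the other with DESeq2, since ties came only from rows that the study had called with DESeq2. The DESeq2 passes of the members and pathway genes were thus fixed by the tie and are no support. At an unadjusted p under 0.05, nearly all of the 1560 tied genes also passed with limma-voom and without any 1 IP replicate. The unadjusted counts of members in those fits are therefore no support either. Why the counts differ between settings was not tested. With the labels' input all 14 pathway genes turned: DLL1 -0.68, DLL3 -0.43, JAG1 0.48, HES5 -1.05, HES6 -1.06, DLK1 0.24, NOTCH3 0.14, MFNG -1.86, POFUT1 0.95, ADAM10 1.09, PSENEN -0.11, DTX4 -0.49, HES4 -0.61 and NRARP -0.84 on the log2 scale (adjusted p = 1 from edgeR). Ratios of IP to input in CPM in place of TPM were 19.5 for DLL1, 24.7 for DLL3, 0.378 for JAG1, 369 for HES5 and 58.7 for HES6. On the CPM scale JAG1, a long transcript, stood above DLL1 and HES5 by its mean in the IPs. A tie by mean count alone was not run, because it singled out no member. Depth limits HES5 in the input most.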

Other observations

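POFUT1 fell as a gene, but its transcripts did not move together, a feature chosen after its values were seen. The transcript of 5219 bases had 1096, 940.3 and 974.5 reads in the IPs and 4757 in the input, while that of 4801 bases had 230.9, 590.6 and 578.3 reads in the IPs and 0.0196 in the input. DTX4 was split between transcripts of 5386 and 5795 bases, and the first of these held 449.2, 1102 and 1058 reads in the IPs and 260.4 in the input. These divisions are Salmon's estimates for overlapping transcripts, and no test was made of them.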
